A study of Mus musculus with 32 samples.

Results

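Mitochondria are a network that is remodelled by membrane fusion and fission, and their number and DNA content depend on factors encoded in the nucleus. The 8 nuclear genes described here cover these processes: the fusion GTPases Mfn1, Mfn2 and Opa1, the fission GTPase Dnm1l with the outer membrane proteins Fis1 and Mff, and the mitochondrial DNA factors Tfam and Polg. They were listed by name, with earlier results of these data known, and all 8 of 8 were found among the 13175 genes of the deposited count table. As background, the oocyte supplies the mitochondria of the embryo, mouse oocytes need Mfn1 for follicle growth, and oocytes lacking Dnm1l have clumped mitochondria and mature poorly. In oocytes that had matured from the germinal vesicle (GV) to the metaphase II (MII) stage, 3 of the 8 transcripts were higher and 2 were lower, and the same 5 genes were called in fresh and in vitrified follicles. That is near the share of all tested genes that were called, 52.6% in fresh and 57% in vitrified follicles. None of the 8 differed past the threshold between vitrified and fresh follicles at either stage.

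The study asked how vitrification, a rapid cooling that turns the follicle to glass without ice crystals, leaves the transcriptome of oocytes that later grow and mature in culture. Wild-type (WT) mouse preantral follicles were vitrified or kept fresh, and then grown for 8 days by eIVFG, a three-dimensional culture. The 32 libraries each came from 1 oocyte: 4 fresh and 4 vitrified GV oocytes taken on day 8, and 12 fresh and 12 vitrified MII oocytes taken on day 9 after the ovulation signal hCG. All oocytes were therefore cultured, the stages differ by day and hCG together, and the mouse and the culture of each oocyte are not given in the sources used here, so p-values measure the spread between these oocytes.

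Depth ran from 10357543 to 17687247 counts in GV oocytes and from 5300208 to 12206512 in MII oocytes. All 14 oocyte markers were present, with summed levels of 15053 to 35890 CPM (counts scaled to 1e+06 per library). Cumulus and granulosa markers summed to 147 to 349 CPM in GV and to 1519 to 8585 CPM in MII oocytes. These ranges did not overlap, and the part of these markers in the stage differences below was not tested. Serpine2, which is high in MII oocytes of this study, was set aside after its values were seen. Without it, the cumulus and granulosa markers summed to 67.1 to 135 CPM in GV oocytes. They summed to a median of 101 in fresh and 123 in vitrified MII oocytes, but to 4928 in MII fresh replicate 11 and 760 in MII vitrified replicate 12. Amh, Foxl2, Cd44 and Pgr were not among the genes of the table, and 0 of 3 blood markers were. Theca and stroma markers (3 of 7 in the table) summed to at most 8.31 CPM in any oocyte. Of 3 endothelium markers, Pecam1 and Kdr were in the table, and their sum moved with stage: it was 8.59 to 22.3 CPM in GV and 34.4 to 113 CPM in MII oocytes, with no overlap, and its part in the stage differences below was not tested. GV values are whole numbers, whereas 11.7% to 19.7% of the values of an MII oocyte are not. Libraries of GV oocytes carry other library numbers (81 to 85) than those of MII oocytes (below 20, or 20 and over), so stage, library series and this difference in the values cannot be told apart. The kit primes on poly(A) tails and total RNA per oocyte was not measured, so every level is a share of the library and cannot separate the amount of a transcript from its tail.

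Of the fusion genes, Mfn1, an outer membrane GTPase that tethers and fuses neighbouring mitochondria, lies on the plus strand at chr3:32529465-32579239 (GRCm38). In fresh GV oocytes 1 to 4 Mfn1 stood at 55.8, 86.2, 36.8 and 89.5 CPM, and in vitrified GV oocytes at 48.6, 62.7, 62.1 and 73.4 CPM. In MII oocytes the lowest, median and highest values were 98.8, 200 and 290 CPM (fresh, n = 12) and 71.7, 204 and 288 CPM (vitrified, n = 12). All 12 fresh MII oocytes lay above the 4 fresh GV oocytes, and 11 of 12 vitrified MII oocytes lay above the 4 vitrified GV oocytes. The rise was 1.49 ± 0.32 on the log2 scale (SE), or 2.82-fold, in fresh oocytes (adjusted p = 0.000186, edgeR quasi-likelihood F test over all genes) and 1.65 ± 0.33, or 3.13-fold, in vitrified oocytes (adjusted p = 5.29e-05).

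Mfn2, the second mitofusin, was detected at low level. Its values were 1.58, 5.03, 2.03 and 2.69 CPM in fresh GV oocytes 1 to 4 and 1.07, 4.78, 1.17 and 5.68 CPM in vitrified GV oocytes 1 to 4. In MII oocytes it ranged from 0 to 6.45 CPM (fresh, median 3.33) and from 0 to 5.76 CPM (vitrified, median 1.64), with 1 and 2 oocytes at 0. The ranges of all 4 groups overlapped. The stage differences of 0.18 ± 0.90 in fresh and −0.67 ± 0.87 in vitrified oocytes (log2, SE) did not pass (adjusted p = 0.888 and 0.535), and their 95% intervals, −1.66 to 2.01 and −2.43 to 1.10, leave a 2-fold change in either direction possible.

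Opa1, the inner membrane GTPase that fuses inner membranes and holds cristae closed, was measured at 24.4, 37.7, 21.01 and 17.4 CPM in fresh GV oocytes 1 to 4 and at 35.5, 26.5, 22.1 and 24.5 CPM in vitrified ones. Fresh MII oocytes ranged from 19.6 to 66.1 CPM with a median of 42.4, and vitrified MII oocytes from 14.4 to 52.5 CPM with a median of 26.9. The 2 stages overlapped in both treatments, although 8 of 12 fresh MII oocytes lay above every fresh GV oocyte. The difference of 0.69 ± 0.32 (log2, SE) in fresh oocytes missed the threshold (adjusted p = 0.0693), and was called when GV fresh replicate 2, MII fresh replicate 6 or MII fresh replicate 11 was left out (0.95, 0.74 and 0.74). In vitrified oocytes it was 0.12 ± 0.31 (adjusted p = 0.759).

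**Figure D1:**
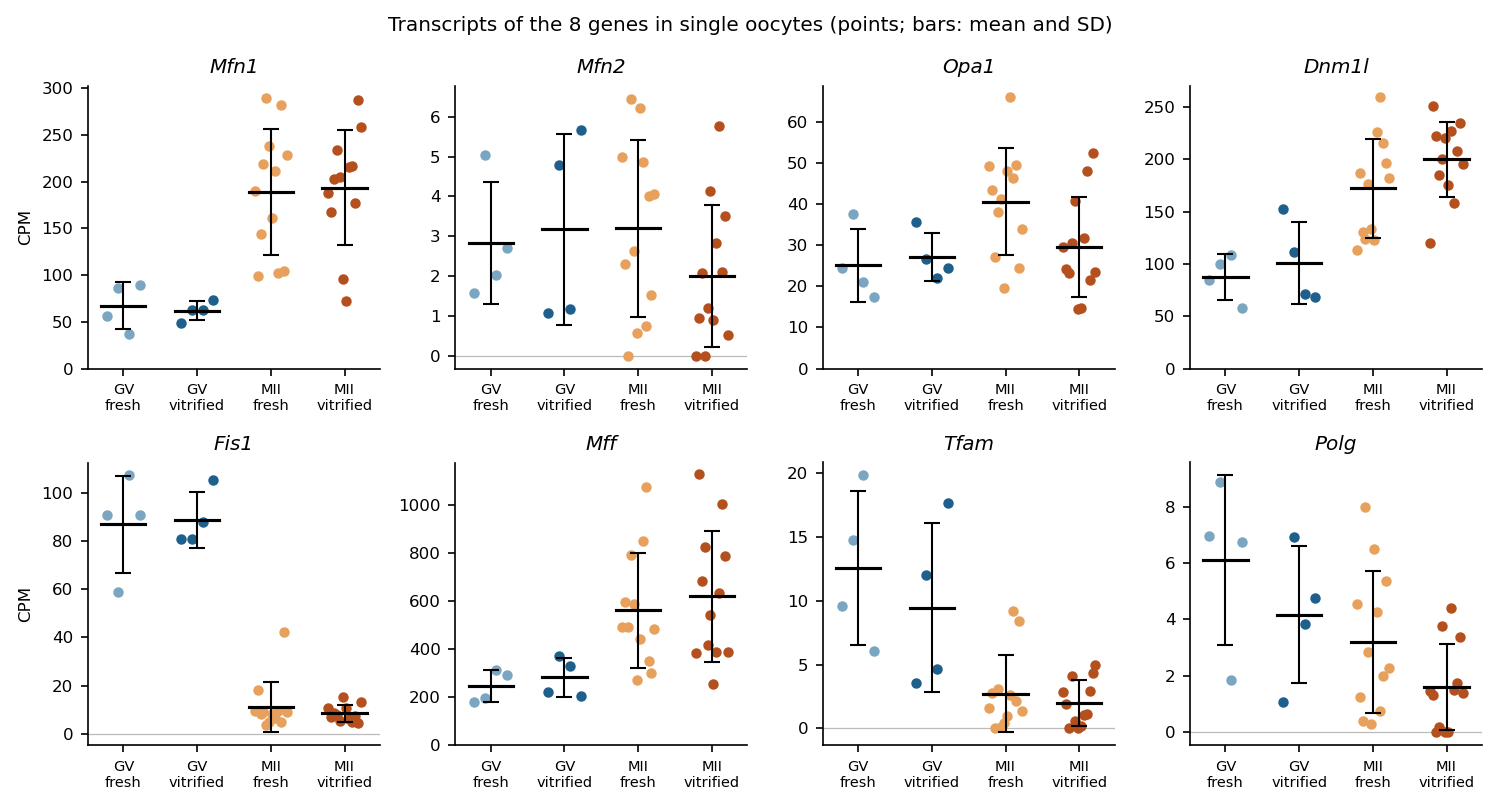
CPM of each gene (y axis, linear) in every oocyte of the 4 groups (x axis), with 1 point per oocyte and the mean and SD as black bars. Mfn1, Dnm1l and Mff sit higher and Fis1 and Tfam lower in MII than in GV oocytes, and the single high Fis1 value in MII is fresh replicate 11 at 42.4 CPM.

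Of the fission genes, Dnm1l (the dynamin-related GTPase Drp1, which constricts mitochondria from the cytosol) stood at 84.7, 99.5, 108 and 58.0 CPM in fresh GV oocytes 1 to 4 and at 152, 112, 71.3 and 68.5 CPM in vitrified ones. In MII oocytes it ranged from 113 to 260 CPM (fresh, median 179) and from 120 to 251 CPM (vitrified, median 204). Fresh oocytes of the 2 stages did not overlap, and 11 of 12 vitrified MII oocytes lay above all vitrified GV oocytes. Dnm1l rose 1.97-fold in fresh (log2 0.98 ± 0.24, adjusted p = 0.000867, edgeR) and 1.98-fold in vitrified oocytes (0.99 ± 0.24, adjusted p = 0.000696). In fresh MII oocytes the library series moved with its level: those with library numbers below 20 averaged 141 ± 28.8 CPM (SD, n = 7) and those of 20 and over 216 ± 29.9 CPM (n = 5), and the fresh rise was 0.71 ± 0.26 with the first and 1.40 ± 0.28 with the second, called in each (adjusted p = 0.0234 and 0.000395, edgeR). In vitrified MII oocytes the 2 series averaged 197 ± 42.1 and 205 ± 30.1 CPM, and the rises were 0.98 ± 0.26 and 1.05 ± 0.28.

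Mff, an outer membrane receptor that recruits Drp1, had the highest CPM of the 8 genes in all 4 groups. It stood at 181, 197, 314 and 291 CPM in fresh GV oocytes 1 to 4 and at 222, 369, 330 and 206 CPM in vitrified ones. Its lowest, median and highest values in MII oocytes were 269, 492 and 1074 CPM (fresh) and 254, 587 and 1128 CPM (vitrified). The ranges overlapped, with 10 of 12 fresh and 11 of 12 vitrified MII oocytes above every GV oocyte of the same treatment. Mff rose 2.28-fold in fresh (log2 1.19 ± 0.35, adjusted p = 0.00422) and 2.20-fold in vitrified oocytes (1.14 ± 0.35, adjusted p = 0.00537).

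Fis1, a small tail-anchored outer membrane protein that was first described as a fission adaptor in yeast, went the other way. It stood at 90.8, 58.8, 107 and 90.6 CPM in fresh GV oocytes 1 to 4 and at 80.9, 80.9, 88.0 and 105 CPM in vitrified ones. Fresh MII oocytes held 3.51 to 42.4 CPM with a median of 8.76, and vitrified MII oocytes 4.32 to 15.2 CPM with a median of 7.58. No MII oocyte reached the lowest GV oocyte of its treatment. The log2 difference was −2.96 ± 0.38, to 0.129 of the GV level, in fresh oocytes (adjusted p = 3.97e-08, edgeR) and −3.39 ± 0.38, to 0.0956 of the GV level, in vitrified oocytes (adjusted p = 2.03e-09). The highest MII value belongs to fresh replicate 11, the oocyte with the highest cumulus marker sum. Without it the other 11 fresh MII oocytes averaged 8.37 ± 3.86 CPM (SD), and the fresh difference was −3.37 ± 0.30.

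Tfam, which packages mitochondrial DNA and starts its transcription, also fell. It stood at 9.56, 14.7, 19.8 and 6.09 CPM in fresh GV oocytes 1 to 4 and at 3.58, 12.0, 4.64 and 17.6 CPM in vitrified ones. In MII oocytes it ranged from 0 to 9.17 CPM (fresh, median 1.87) and from 0 to 4.96 CPM (vitrified, median 1.49). The stages overlapped, with 10 of 12 fresh and 9 of 12 vitrified MII oocytes below every GV oocyte of their treatment. The log2 difference was −2.20 ± 0.82 in fresh (adjusted p = 0.0241) and −2.22 ± 0.82 in vitrified oocytes (adjusted p = 0.0213). Leaving out single oocytes gave −2.56 to −1.86 in fresh and −2.45 to −1.73 in vitrified oocytes, so the direction was kept. The call was lost without GV fresh replicate 2 or 3 (−2.11 and −1.86, adjusted p = 0.0568 and 0.0964, edgeR) and without GV vitrified replicate 2 or 4 (−2.07 and −1.73, adjusted p = 0.0572 and 0.116). It was larger with MII library numbers below 20 (−3.25 ± 0.95 in fresh, −2.73 ± 0.94 in vitrified) than with those of 20 and over, where it did not pass (−1.28 ± 0.69, adjusted p = 0.136, and −1.66 ± 0.69, adjusted p = 0.0516), and no test of that difference was run.

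Polg, the catalytic subunit of the mitochondrial DNA polymerase, was among the lowest of the 8. Its values were 6.97, 8.90, 1.84 and 6.73 CPM in fresh GV oocytes 1 to 4 and 1.07, 6.94, 3.86 and 4.76 CPM in vitrified ones. MII oocytes ranged from 0.281 to 7.99 CPM (fresh) and from 0 to 4.42 CPM (vitrified, 3 oocytes at 0), overlapping the GV oocytes. The stage differences of −0.93 ± 0.83 and −1.37 ± 0.83 (log2, SE) did not pass (adjusted p = 0.367 and 0.159). Polg shares 921 exon bases with Fanci, a DNA repair gene on the opposite strand, and whether counting used strand is not stated, so reads of the 2 genes cannot be told apart there and the level of Polg is uncertain. Fanci averaged 13.2 (fresh) and 14.5 CPM (vitrified) at the GV stage, against 25.6 (fresh) and 14.6 CPM (vitrified) at the MII stage. Between stages it differed by 0.95 ± 0.40 in fresh (adjusted p = 0.0429, edgeR) and 0.01 ± 0.37 in vitrified oocytes. Polg and Fanci were whole in every GV oocyte. Each was not whole in 9 fresh and 5 vitrified MII oocytes, as was Dnm1l. How shared reads were counted at each stage is not stated, and its part in the Polg stage difference was not tested. Smaller overlaps on the opposite strand hold 243 exon bases of Dnm1l and 195 of Mff.

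These counts stand against a broad background of change. Of 11470 genes tested, 52.6% were called between the stages in fresh oocytes (22.8% higher and 29.8% lower in MII) and 57% in vitrified oocytes (23.3% higher and 33.7% lower), so 5 of 8 is near the share of all genes. The median log2 difference of the 8 was 0.43 in fresh and −0.27 in vitrified oocytes, beside −0.23 and −0.34 over all genes tested. With library totals alone in place of TMM scaling, added once the values were known, the median of all genes shifted by −0.38 and −0.47, and the calls split 1992 higher to 4142 lower (fresh) and 1945 to 4703 (vitrified), against 2615 to 3413 and 2678 to 3861. The 5 called genes kept their direction under that scaling, but the Mff rise in vitrified oocytes no longer passed (0.61, adjusted p = 0.111). MII fresh replicate 11 and MII vitrified replicate 12 were the pair highest in cumulus markers only with Serpine2 set aside. That choice was made after its values were seen. With Serpine2, vitrified replicate 12 summed to 2516 CPM, below vitrified replicate 7 at 4631 CPM. Without the pair, 4 members were higher and 2 lower in fresh oocytes, and 3 higher and 2 lower in vitrified ones. The addition in fresh oocytes was Opa1 (0.75 ± 0.32, adjusted p = 0.0498, edgeR).

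**Figure D2:**
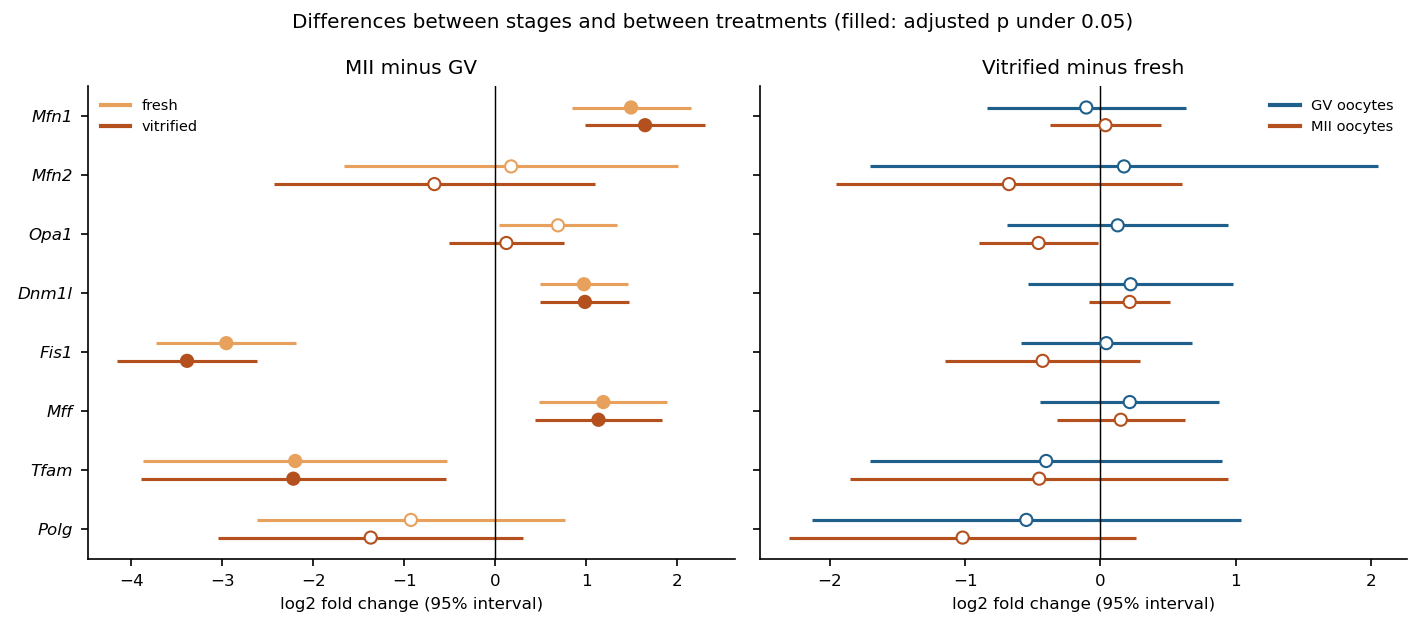
Log2 fold change of each gene (x axis) with its 95% interval, between stages (left) and between treatments (right), and filled points where the adjusted p is under 0.05. Mfn1, Dnm1l and Mff lie to the right and Fis1 and Tfam to the left of 0 in both treatments at left, whereas no point is filled at right.

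Whether the stage difference itself depended on vitrification was tested as an interaction. None of the 8 genes was called, and 0% of the 11470 genes tested were, with 467 at an unadjusted p under 0.05 (DESeq2 called 8). The interaction terms ran from −0.84 ± 1.27 for Mfn2 to 0.15 ± 0.41 for Mfn1 (log2, SE), with an adjusted p of 1 for each. For Fis1 the 95% interval was −1.63 to 0.77, and for Dnm1l −0.64 to 0.66.

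Vitrified and fresh follicles were then compared within a stage. In GV oocytes the means of Mfn1 were 67.1 ± 25.3 (fresh, SD, n = 4) and 61.7 ± 10.2 CPM (vitrified, n = 4), and those of Fis1 were 86.8 ± 20.2 and 88.8 ± 11.5 CPM. Tfam averaged 12.5 ± 6.00 and 9.46 ± 6.61 CPM, and Polg 6.11 ± 3.01 and 4.16 ± 2.43 CPM. The ranges of the 2 treatments overlapped for each of the 8 genes. Log2 differences (vitrified minus fresh) lay between −0.55 ± 0.73 for Polg and 0.22 ± 0.35 for Dnm1l. None passed (adjusted p = 1 for all 8, edgeR), and 0% of 10831 genes did, with 180 at an unadjusted p under 0.05 and 0 calls by DESeq2. The 95% intervals were narrowest for Fis1 (−0.59 to 0.68) and widest for Mfn2 (−1.70 to 2.05). With 4 oocytes a treatment, differences within these bounds remain possible.

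In MII oocytes, where 12 stood against 12, the intervals were narrower except for Fis1 (−1.15 to 0.29) and Tfam (−1.85 to 0.94). Mfn1 averaged 189 ± 67.4 CPM (fresh) and 193 ± 61.3 CPM (vitrified), a log2 difference of 0.04 ± 0.20 with a 95% interval of −0.37 to 0.44. Mff differed by 0.15 ± 0.23 (interval −0.32 to 0.62), and Mfn2 by −0.68 ± 0.62 (interval −1.95 to 0.60). Opa1 had the smallest p of the 8: its means were 40.6 ± 12.9 CPM (fresh) and 29.6 ± 12.2 CPM (vitrified), a difference of −0.46 ± 0.21 (interval −0.89 to −0.02, unadjusted p = 0.041, adjusted p = 0.377, edgeR). The difference was −0.59 ± 0.27 in oocytes with library numbers below 20 and −0.31 ± 0.33 in those of 20 and over. Adjusted p was 0.377 or higher for all 8 genes, and 0% of 8428 genes passed, with 1053 at an unadjusted p under 0.05 (DESeq2 called 52, none of them among the 8).

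Dnm1l differed between treatments by 0.22 ± 0.15 in MII oocytes (interval −0.08 to 0.52, adjusted p = 0.54). The library series moved with this value too. With numbers below 20 it was 0.49 ± 0.17 (means of 141 fresh and 197 vitrified CPM), and with numbers of 20 and over −0.09 ± 0.16 (216 and 205 CPM), neither of which passed (adjusted p = 0.173 and 0.927, edgeR). Fis1 differed by −0.43 ± 0.35, and by 0.04 ± 0.28 once MII fresh replicate 11 was left out. Tfam (2.73 ± 3.02 and 2.00 ± 1.79 CPM) differed by −0.45 ± 0.68, and Polg (3.21 ± 2.52 and 1.60 ± 1.53 CPM) by −1.02 ± 0.63, with 95% intervals of −1.85 to 0.94 and −2.30 to 0.26. Fanci, which overlaps Polg, was −0.80 ± 0.27, in the same direction, and did not pass either (adjusted p = 0.257, edgeR). The part of the overlap in the value of Polg was not tested.

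Levels were set side by side per kilobase of exon sequence, the union of a gene's exons. In GV oocytes Fis1 was highest, at 50.7 ± 11.8 CPM per kb in fresh and 51.8 ± 6.72 in vitrified oocytes (SD, n = 4 each). Mff (25.2 and 28.9), Dnm1l (16.8 and 19.4) and Mfn1 (11.0 and 10.1 CPM per kb) followed. Opa1 (3.19 and 3.45) and Tfam (2.83 and 2.13) came next, with overlapping SD ranges. Polg and Mfn2 lay between 0.387 and 0.611 CPM per kb without a clear order. In MII oocytes the order was headed by Mff at 57.4 ± 24.5 (fresh) and 63.4 ± 28.1 CPM per kb (vitrified), then Dnm1l (33.1 and 38.4) and Mfn1 (30.9 and 31.6), whose SD ranges overlapped. Fis1, first in GV oocytes, was at 6.54 ± 6.12 and 4.94 ± 1.98 CPM per kb in MII oocytes, and its SD range overlapped that of Opa1 (5.15 and 3.75). The first place in GV oocytes depended on the length used: the exon union of Mff holds 9757 bases and its chosen transcript 1894, and per kilobase of that single transcript Mff (130 and 149) stood above Fis1 (110 and 113), with overlapping SD ranges.

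**Figure D3:**
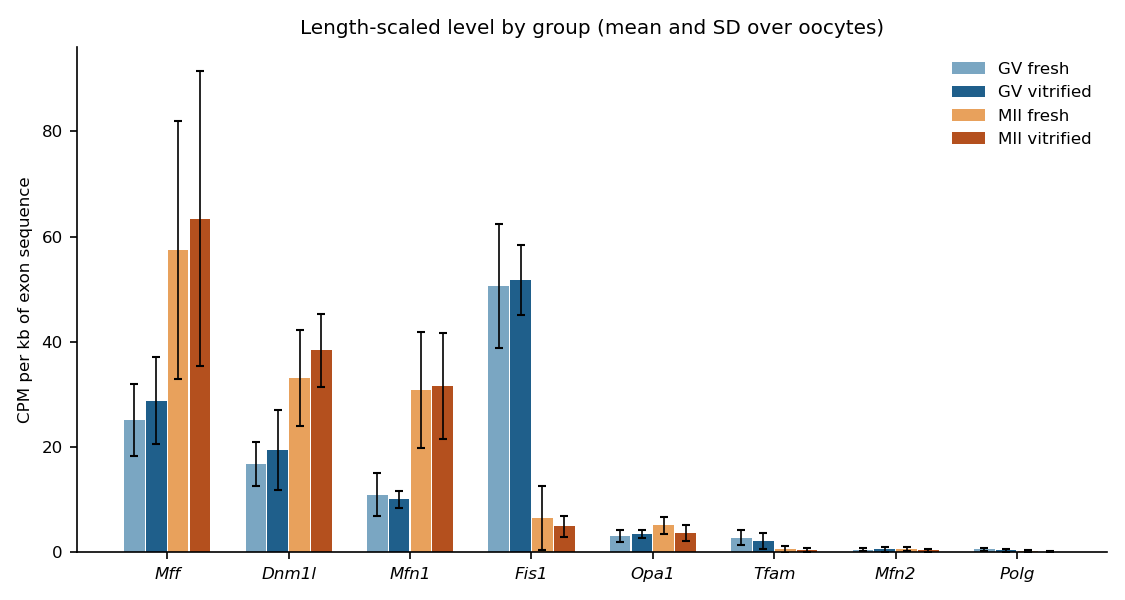
Mean level per kilobase of exon sequence (y axis, CPM per kb, from 0) of each gene (x axis) in the 4 groups, with the SD over oocytes as error bars. Fis1 has the tallest GV bars, about 51 CPM per kb, and has rank 4 of the 8 genes in MII. Mff, Dnm1l and Mfn1 have their taller bars in MII.

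Oocytes of 1 group also differed among themselves. The coefficient of variation within a group was 31.7% to 35.7% for Mfn1 and 18.1% to 27.6% for Dnm1l in MII oocytes, but 89.1% to 111% for Tfam. Over the deviations of all 32 oocytes from their group means (log2 CPM), the 28 pairs of members had correlations from −0.65 to 0.50, with a median of 0.17, and 8 were negative. The strongest was that of Mfn1 with Fis1 (Pearson's r = −0.65, Spearman's rho = −0.55). It was −0.79 in the 12 fresh and −0.57 in the 12 vitrified MII oocytes, and −0.46 in the 8 GV oocytes. Leaving out the 2 oocytes with the most extreme Mfn1 gave −0.87 in fresh MII oocytes and −0.18 in vitrified ones, so in the vitrified group it rested on those 2. It was −0.67 over the 23 MII oocytes without fresh replicate 11. In MII oocytes with library numbers of 20 and over (n = 10) the correlation was −0.65, and −0.24 without the 2 most extreme in Mfn1. With numbers below 20 (n = 14) it was −0.775, and −0.791 without the 2 most extreme. These values share the scaling of each library. The deviations of Mfn1 had r = 0.54 with the TMM factor and −0.27 with the log2 cumulus marker sum (Serpine2 set aside). Those of Fis1 had −0.21 and 0.72. The part of the scaling and of the cumulus transcripts in this correlation was not tested.

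**Figure D4:**
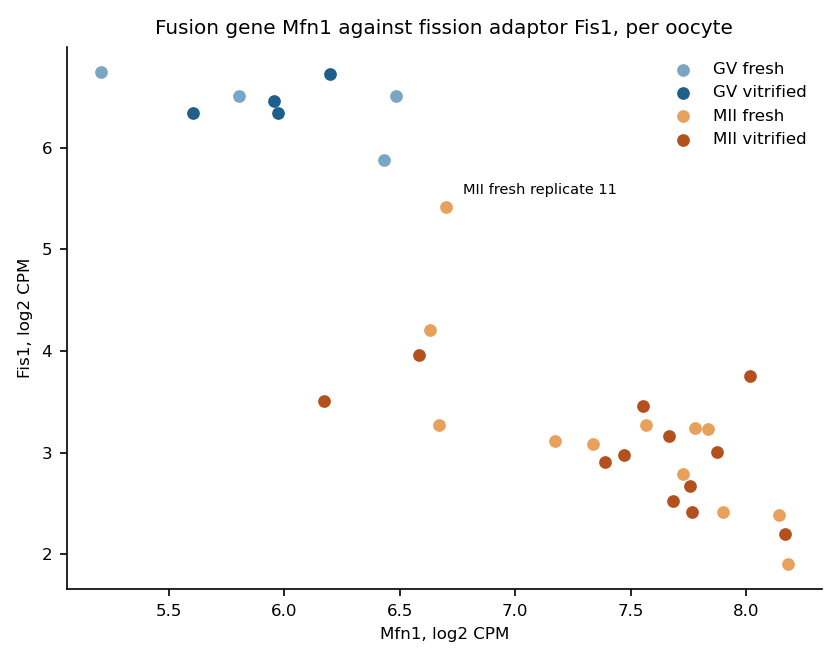
Fis1 (y axis) against Mfn1 (x axis), both as log2 CPM, with 1 point per oocyte coloured by group. GV oocytes sit at upper left and MII oocytes at lower right. Within MII oocytes those with more Mfn1 tended to have less Fis1, less clearly in vitrified ones, and fresh replicate 11 lay above the rest.

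The genes most like each member over the 32 oocytes were taken by Pearson correlation of log2 CPM among 6447 genes, and the second value is the correlation within groups, with no test. For Mfn1 they were Med15 (0.96 and 0.90) and Akt1 (0.96 and 0.90). Fis1 was most like Nhp2 (0.98 and 0.85) and Park7 (0.98 and 0.86), and Dnm1l like Naalad2 (0.92 and 0.79) and Pnpla8 (0.92 and 0.80). Opa1 was most like Usp8 (0.77 and 0.80) and Nin (0.73 and 0.70). Mff was most like Slc4a10 (0.78 and 0.58) and Sptlc1 (0.77 and 0.62), and Tfam like Timm50 (0.78 and 0.64) and Pfdn2 (0.76 and 0.55). Mfn2 had the weakest matches over the 32 oocytes, Pitrm1 (0.62 and 0.60) and Atf7ip (0.58 and 0.54). Polg was most like Atf7ip (0.75 and 0.72) and Eftud2 (0.73 and 0.66). Stage differences enter the first value but not the second.

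Sequence features were read for the members, since transcripts of a maturing oocyte differ in how their tails are handled and since genes for mitochondrial factors often share promoter elements. The cytoplasmic polyadenylation elements TTTTAT and TTTTAAT were sought on the transcript strand in the last 100 bases of 1 transcript per gene (GENCODE M21). Only Mfn1 of the 8 held one, beside 19.4% of 13036 genes, and it starts 64 bases before the transcript end, at chr3:32579164-32579193 (GRCm38, plus strand, the element in capitals).
Mfn1: tttacaaaacatTTTTATaagtatgcaagc
The hexamer AATAAA was present in the same window in 6 of 8 members, all but Opa1 and Tfam, beside 66.4% of all genes.

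Promoter windows of 250 bases before to 50 after a start site were taken from RefSeq (GRCm38.p6), with 13 windows for the 8 genes, all 8 of which matched. The letters CCGGAAGT, a motif of the kind bound by GABPA, were sought on both strands after the sequences had been seen. They were found in 4 of 8 members, beside 8.57% of 10582 genes, which had 13476 windows. Since the letters were chosen with the sequences in view and windows per gene differ, these shares do not measure an enrichment. The letters CGCATGCG, the core of the NRF1 motif, were found in Opa1 alone, beside 4.1% of genes. The windows around them are shown because GABPA and NRF1 are known regulators of nuclear genes for mitochondria, with the motif in capitals, read on the strand of the gene.
Mfn1 (chr3:32529428-32529455, plus strand): atccgaagcgCCGGAAGTagccgcccct
Fis1 (chr5:136953247-136953274, plus strand): gaggcaccacCCGGAAGTtcaggcttcc
Tfam (chr10:71238074-71238101, minus strand): ctgccgcggaCCGGAAGTccgggcttcc
Polg (chr7:79466294-79466321, minus strand): aggacctcacCCGGAAGTccctctgcac
Opa1 (chr16:29579266-29579293, plus strand): tggctccccgCGCATGCGcatgtcatcc
The motif begins 44 bases before the start site in Mfn1, 18 in Fis1, 47 in Tfam and 38 in Polg. Fis1 held the letters also in the window of another start site, 19 bases after that site, at chr5:136962086-136962113, which is not printed. Of these 4 genes, Mfn1 rose, Fis1 and Tfam fell and Polg was not called. Whether the letters bear on these stage differences was not tested. The match is a description of the letters, and no binding was measured.

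The wider pathways were read from 6 lists of 98 genes, 5 of which were not among the genes of the table. Among proteins of fusion and inner membrane shaping, 3 of 14 tested were higher and 6 lower in MII than GV oocytes of fresh follicles, and 3 and 7 in vitrified ones, with medians of −0.63 and −1.10 on the log2 scale beside −0.23 and −0.34 over all genes. These 9 and 10 of 14 genes stand beside 52.6% and 57% of all genes. Apoo, a subunit of the MICOS complex at cristae junctions, fell from 403 ± 182 to 65.4 ± 24.9 CPM in fresh oocytes (−2.62 ± 0.31, adjusted p = 9.90e-09). Parl, an inner membrane rhomboid protease, fell by 1.65 and Stoml2, a prohibitin-like inner membrane protein, rose by 1.82 in fresh oocytes. Both changed in the same direction in vitrified oocytes, Parl by −2.15 and Stoml2 by 1.88.

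Among fission genes, 3 of 13 were higher and 5 lower in fresh, and 2 and 5 in vitrified oocytes, near the 52.6% and 57% of all genes (medians 0.11 and 0.04). Cdk1, the mitotic kinase that phosphorylates Drp1, fell from 158 ± 78.7 to 33.4 ± 17.6 CPM in fresh oocytes (−2.24 ± 0.33). Mief1, an outer membrane Drp1 receptor, fell by 2.89 and Mtfr2 rose by 2.04 in vitrified oocytes. Stx17 (−1.30) and Mtfr1l (−2.15) fell in fresh oocytes. Of the outer membrane proteins linked to Drp1, Mff rose whereas Mief1 and Fis1 fell.

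Among genes of mitochondrial DNA replication, transcription and upkeep, 9 of 25 were higher and 9 lower in fresh, and 8 and 11 in vitrified oocytes, with medians of −0.84 and −1.39, beside 52.6% and 57% of all genes called and medians of −0.23 and −0.34. The higher calls in fresh oocytes include Mterf2 (4.79 ± 1.71), which had a total of 3 counts over the 4 fresh GV oocytes. In vitrified oocytes Mterf2 was −1.32 ± 1.16 and not called. Mterf4, which guides ribosomal RNA methylation in mitochondria, fell from 228 ± 60.0 to 12.9 ± 4.13 CPM in fresh oocytes (−4.14 ± 0.23, adjusted p = 2.27e-16, edgeR). Slirp, a stabiliser of mitochondrial messages, fell from 98.2 ± 25.7 to 1.34 ± 2.63 CPM, with 2 fresh MII oocytes at 0 (−6.21 ± 0.73). Ssbp1, the mitochondrial single-strand DNA-binding protein, fell from 87.4 ± 27.1 to 10.4 ± 7.31 CPM in fresh oocytes (−3.07 ± 0.37), and Tfb1m, a ribosomal RNA methyltransferase, fell by 2.65 in vitrified ones.

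Among regulators of mitochondrial biogenesis, 4 of 18 were higher and 4 lower in fresh, and 3 and 4 in vitrified oocytes, beside 52.6% and 57% of all genes (medians −0.26 and −0.45). Esrrb, an orphan nuclear receptor, fell from 179 ± 72.4 to 4.81 ± 1.78 CPM in fresh oocytes (−5.21 ± 0.37), and Prkaa1 and Prkaa2, the catalytic subunits of AMPK, fell by 3.04 and 2.38. Nfe2l2, the antioxidant response factor, rose by 2.39 in vitrified oocytes. Of the transport genes, Rhot1, the Miro1 adaptor that links mitochondria to motors, rose from 95.5 ± 18.7 to 522 ± 154 CPM in fresh oocytes (2.45 ± 0.28), whereas its paralogue Rhot2 fell from 12.9 ± 8.56 to 2.12 ± 1.52 CPM (−2.60 ± 0.86). In all, 2 of 8 transport genes were higher and 1 lower in fresh, and 1 and 1 in vitrified oocytes, beside 52.6% and 57% of all genes (medians 0.14 and −0.46). The other call in fresh oocytes was Armcx3, which was at 0 in 3 of 4 fresh GV and 9 of 12 fresh MII oocytes.

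Of 11 mitophagy genes, 3 were higher and 4 lower in fresh oocytes, and 3 and 1 in vitrified ones, beside 52.6% and 57% of all genes (medians −0.22 and 0.21). Optn, a mitophagy receptor, fell from 134 ± 67.1 to 8.58 ± 4.66 CPM (−3.96 ± 0.36), Tbk1, the kinase that phosphorylates Optn, rose from 10.9 ± 3.22 to 72.3 ± 24.8 CPM (2.73 ± 0.32), and the receptor Bnip3 rose by 2.85, all in fresh oocytes. None of the tested genes of these 6 lists was called between vitrified and fresh follicles at either stage or in the interaction. The smallest p of any list gene was that of Immt in MII oocytes (46.5 ± 12.7 fresh and 32.5 ± 12.0 CPM vitrified, −0.51 ± 0.19, adjusted p = 0.288) and that of Fkbp8 in GV oocytes (70.4 ± 22.8 and 29.0 ± 14.5 CPM, −1.27 ± 0.44, adjusted p = 1). No list was tested against other genes.

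**Figure D5:**
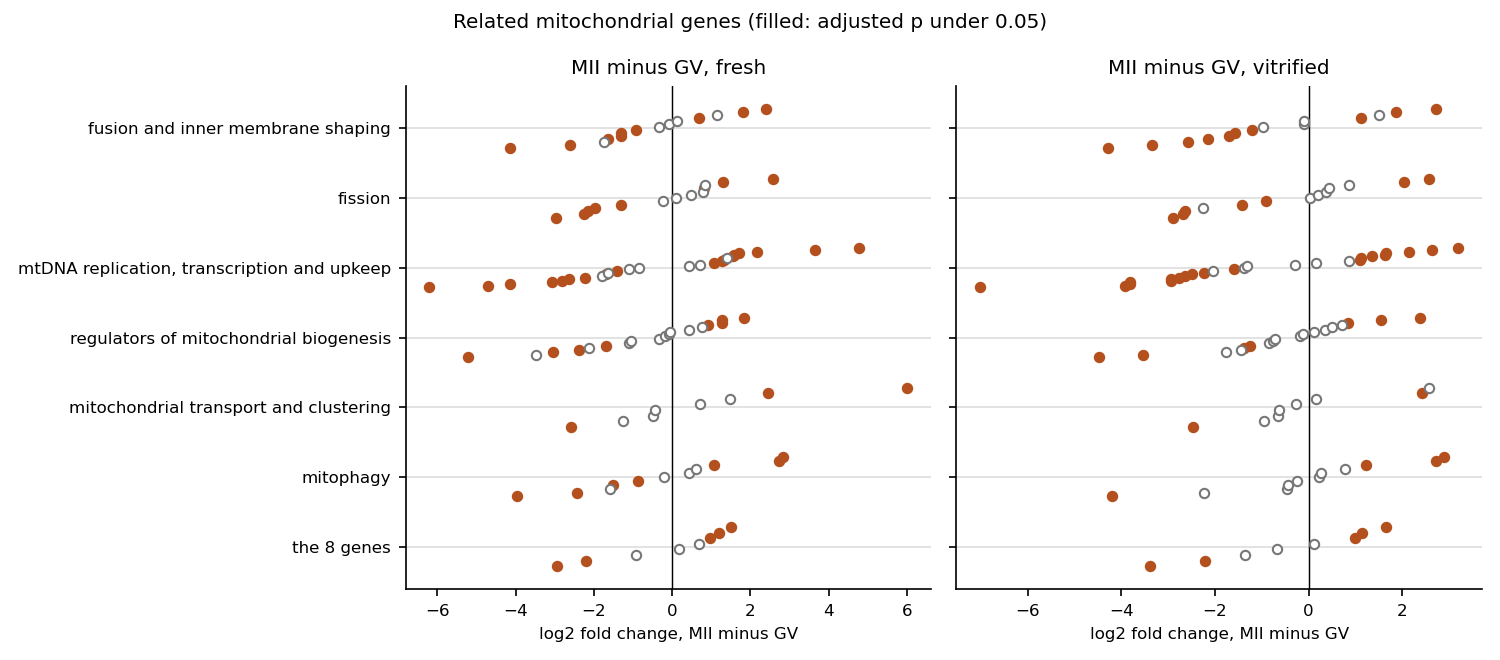
Log2 fold change between MII and GV oocytes (x axis) of each tested gene of the 6 lists and of the 8 genes (rows), in fresh (left) and vitrified oocytes (right), filled where the adjusted p is under 0.05. Filled points lie on both sides of 0 in every list, from Slirp at −6.21 to Armcx3 at 6.01 in fresh oocytes.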

How the data were processed

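Each library was prepared with the SMART-Seq v4 low-input kit, per the labels' protocols. The submitters' processing notes name HISAT2, featureCounts and build mm10 and give no versions. The deposited GV values are whole counts, and the deposited MII values resemble expected counts, since part of them is not whole, by a step of the authors that the sources used here do not state. All values were rounded to whole counts. Of 13202 entries, 27 exact repeats were removed. MII counts of every gene sum to 10 or more, so the deposited table was limited on MII values.

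CPM were computed on TMM library sizes, and log2 CPM with a prior count of 2. Comparisons used the two-sided quasi-likelihood F test of edgeR 4.0.16 (R 4.3.3) after filterByExpr (minimum 10 counts, 15 in total), with Benjamini-Hochberg adjustment over all tested genes at 0.05. Treatments were compared on the 2 groups of a stage, and stages and the interaction in 1 fit of 32 oocytes with 4 group means. All 8 members passed the filter in each of the 5 comparisons. DESeq2 1.42.0 was an alternative. The steps were tested on simulated data. Errors of fold changes are standard errors, and those of CPM standard deviations. Positions, lengths and 3' ends came from GENCODE M21 (13059 of 13175 symbols matched) and promoters from RefSeq. Per list and comparison, up to 3 genes with the smallest p were named. The members, lists and the 4 MII oocytes left out for cumulus transcripts were chosen with earlier results of these data known. Replicate numbers were not taken as pairs in the main tests, and pairing by library number was not examined.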

Additional observations from a re-analysis of the deposited data

How the results depend on the processing

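Of 430 values of a member's log2 fold change under another setting (single oocytes left out are given apart), 400 kept their direction and their side of the threshold, 24 changed sign, 3 gained and 3 lost a call. Members that a setting filtered out, or left without an adjusted p, are not among the 430. No Mfn1, Dnm1l or Fis1 stage call was lost under any setting or any single oocyte left out. None of the sign changes concerned a called difference. With the replicate block, Mfn2 was −0.072 between treatments in GV oocytes and −0.115 between stages in fresh oocytes, and the Tfam interaction was 0.70 (0.078 without fresh 11 and vitrified 12). Deviations of fresh and vitrified oocytes with the same replicate number had a median correlation of 0.084 in 12 MII pairs and 0.058 in 4 GV pairs. The correlation was over 0.1 in 6 and 2 of these pairs, and the own number gave the best match in 0 and 1. Pairs by shared library number were not examined. With the replicate block, 5 members were called in each stage comparison, among 5427 and 5924 genes. Between treatments in MII oocytes Mfn1 was −0.0098 under the stricter filter, −0.065 without 4 oocytes chosen from earlier results as high in cumulus transcripts, −0.075 without fresh 11 and vitrified 12 alone, −0.20 with library numbers below 20 and −0.073 with library totals alone; Fis1 was 0.093 with numbers below 20 and Dnm1l −0.092 with those of 20 and over. Library totals alone gave −0.19 for Mfn2 between stages in fresh oocytes. Opa1 between stages in vitrified oocytes was −0.0044 with size factors of DESeq2, −0.0016 with its test, −0.084 with numbers below 20 and −0.29 with library totals alone. In the interaction, Mff was 8e-04 with DESeq2's size factors and with its test, Mfn1 −0.097, Fis1 0.049 and Tfam 0.52 with numbers below 20, Dnm1l −0.35 and Polg 0.26 with those of 20 and over, and Dnm1l −0.050 with library totals alone. The causes were not tested. Opa1 in fresh oocytes was called under the stricter filter (0.71), without fresh 11 and vitrified 12 (0.75) and with library numbers of 20 and over (0.89).

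Genes called between treatments in MII oocytes numbered 0, but 52 with DESeq2 and 1 each under the stricter filter, in the fit of all 32 oocytes and with library totals alone. Genes called in the interaction numbered 0, but 3 with DESeq2's size factors, 2 under the stricter filter and 8 with DESeq2. Leaving out single oocytes gave 0 to 1 and 0 to 4 such genes, the 1 without MII fresh replicate 6 or 8, and 4 to 6 members (fresh) and 4 to 5 members (vitrified) between stages. It gave, between treatments in GV oocytes, −0.31 to 0.052 for Mfn1, −0.25 to 0.60 for Mfn2, −0.042 to 0.38 for Opa1, −0.061 to 0.38 for Dnm1l and −0.11 to 0.16 for Fis1. In MII oocytes it gave −0.022 to 0.11 for Mfn1 and −0.54 to 0.040 for Fis1, between stages in fresh oocytes −0.027 to 0.61 for Mfn2, and in the interaction −0.015 to 0.34 for Mfn1, −0.14 to 0.29 for Dnm1l, −0.23 to 0.091 for Mff and −0.32 to 0.47 for Tfam. Mfn2, Tfam and Polg were each at 0 in some MII oocytes and have the widest intervals. Of the 4 oocytes chosen from earlier results, fresh 1 and vitrified 1 lay below vitrified 7, which was kept. Their cumulus markers without Serpine2 summed to 156, 149 and 187 CPM.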
